A study of Mus musculus with 8 samples.

Results

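Transcripts of 10 genes linked to the start of autophagosome formation, here called initiation genes, were measured in epididymal fat. This visceral fat pad beside the epididymis came from mice that lost Atg3 in adipocytes and from wild-type mice. The genes encode the ULK kinase complex (Ulk1, Ulk2, Rb1cc1, Atg13 and Atg101) and the class III phosphoinositide 3-kinase complexes built on the lipid kinase VPS34 (Pik3c3, Pik3r4, Becn1, Atg14 and Uvrag). Uvrag is counted with them, though UVRAG is found in the complex of the endosomal pathway and of autophagosome maturation. The 10 genes were chosen by name from the 37417 genes of the deposited table. Of the 10, 9 stand there under these names. Atg101 is listed under its older name 9430023L20Rik and was matched by its Ensembl identifier, ENSMUSG00000037204. All 10 passed the filter on low counts, with 188 to 2606 reads per gene and library.

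The knockout group (KO) holds 4 mice with the genotype Adiponectin-Cre ERT2-Atg3 flox/flox, and the wild-type group (WT) holds 4 mice. All 8 animals were C57Bl/6 males on chow, and tamoxifen, the drug that switches on the ERT2-fused Cre recombinase, was given to WT mice as well as KO mice. The adiponectin promoter drives Cre in adipocytes, so the blood vessel, stromal and immune cells of the pad keep Atg3. The labels used here give no age, and they do not say whether WT mice carried the floxed allele or Cre. Each library was made from polyadenylated RNA of whole fat. In such bulk samples fewer cells of a type and less RNA per cell cannot be told apart.

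Autophagy begins when the ULK complex is activated at the endoplasmic reticulum under the opposing control of mTORC1, which restrains it, and AMPK, which can activate it. ULK1 then phosphorylates components of the VPS34 complex, whose product, phosphatidylinositol 3-phosphate, recruits the proteins that extend the membrane. ATG3 acts downstream, joining LC3-family proteins to phosphatidylethanolamine on that membrane. The comparison therefore asked whether loss of a late conjugation enzyme was accompanied by altered transcripts of the early machinery.

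Library totals ran from 12952190 to 21688464 counts in KO and from 10986375 to 17128811 in WT fat. Levels are given as CPM, read counts scaled to library size after TMM scaling between libraries, with SD over n = 4 libraries per genotype. Atg3, the deleted gene, held 30.5, 32.2, 30.8 and 27.8 CPM in KO libraries 1 to 4, against 49.1, 44.5, 53.6 and 53.5 CPM in WT libraries 1 to 4. Its log2 fold change (log2FC, KO over WT) was -0.73 (SE 0.086, edgeR adjusted p = 0.0168), and each library lay on the side its label gives. Reads were counted over the entire gene, and which exons are floxed is not stated in the labels. The call was lost without KO library 2 (edgeR adjusted p = 0.0745), WT library 1 (0.0543) or WT library 4 (0.0705), without both KO libraries 2 and 3 (0.0989), with the replicate number as a block (0.111) and with duct epithelium markers as a covariate (0.237). In these 6 fits the log2FC stayed between -0.77 and -0.70.

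KO libraries 2 and 3 stood apart in duct epithelium markers, KO libraries 1 and 4 in liver markers and WT library 1 in lymphocyte markers. A list of 14 duct epithelium markers summed to 56.9, 523, 543 and 55.4 CPM in KO libraries 1 to 4, against 15.5 to 42.2 CPM in WT libraries. All 14 had higher means in KO fat, 7 of them without overlap, and Pax8 was at 0 in 1 WT library. The sum of 5 liver markers was 45.2, 15.8, 10.96 and 75.5 CPM in KO libraries 1 to 4, against 8.86 to 24.0 CPM in WT libraries. All 5 had higher means in KO fat, 0 of them without overlap, and Fgb and Ttr were at 0 in some libraries. A list of 6 lymphocyte markers summed to 252, 59.1, 75.6 and 105 CPM in WT libraries 1 to 4. In KO libraries that sum was 68.5 to 134 CPM, and all 6 markers were highest in WT library 1. The sum of 5 endothelial markers was 1044 to 1197 CPM in KO against 1228 to 1489 CPM in WT libraries. Of these 5, 0 had a higher mean in KO fat, and 3 did not overlap. The mitochondrial share of counts was 5.03 to 6.08% in KO against 3.05 to 4.93% in WT libraries. The sum of 8 adipocyte markers overlapped, at 21780 to 28054 CPM in KO and 22234 to 32153 CPM in WT libraries, and none of the 8 was at 0. Of these 8, only 1, Cidec, had a higher mean in KO fat. Another 1, Adipoq, was lower in KO fat without overlap. The 8 adipocyte markers mark fat in general and do not tell the epididymal depot from others. For the duct markers, fits without KO libraries 2 and 3 and with these markers as a covariate are given below. The part of the liver, lymphocyte, endothelial, mitochondrial and adipocyte measures in the results was not tested.

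None of the 10 initiation genes passed the test between genotypes. With edgeR's quasi-likelihood test 0 of 10 reached an adjusted p of 0.05, against 60 of 14800 tested genes, or 0.405%. At an unadjusted p under 0.05 there were 2 of 10, Ulk2 and Rb1cc1, both lower in KO fat, against 16.2% of all tested genes, 8.52% higher and 7.66% lower in KO. DESeq2 and limma-voom also called 0 of the 10, against 5.47% and 0.304% of all tested genes. Each gave 2 of the 10 an unadjusted p under 0.05, against 2490 genes with DESeq2 and 2108 with limma-voom of the 14800 tested. The log2FC values ran from -0.23 to 0.077 with a median of -0.019, against a median of -0.013 over all tested genes. Of the 10, 4 were positive and 6 negative, against 7042 positive and 7758 negative of all tested genes. For no gene did the KO libraries lie clear of the WT libraries (0 of 10), while this held for 8.86% of all tested genes.

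**Figure D1:**
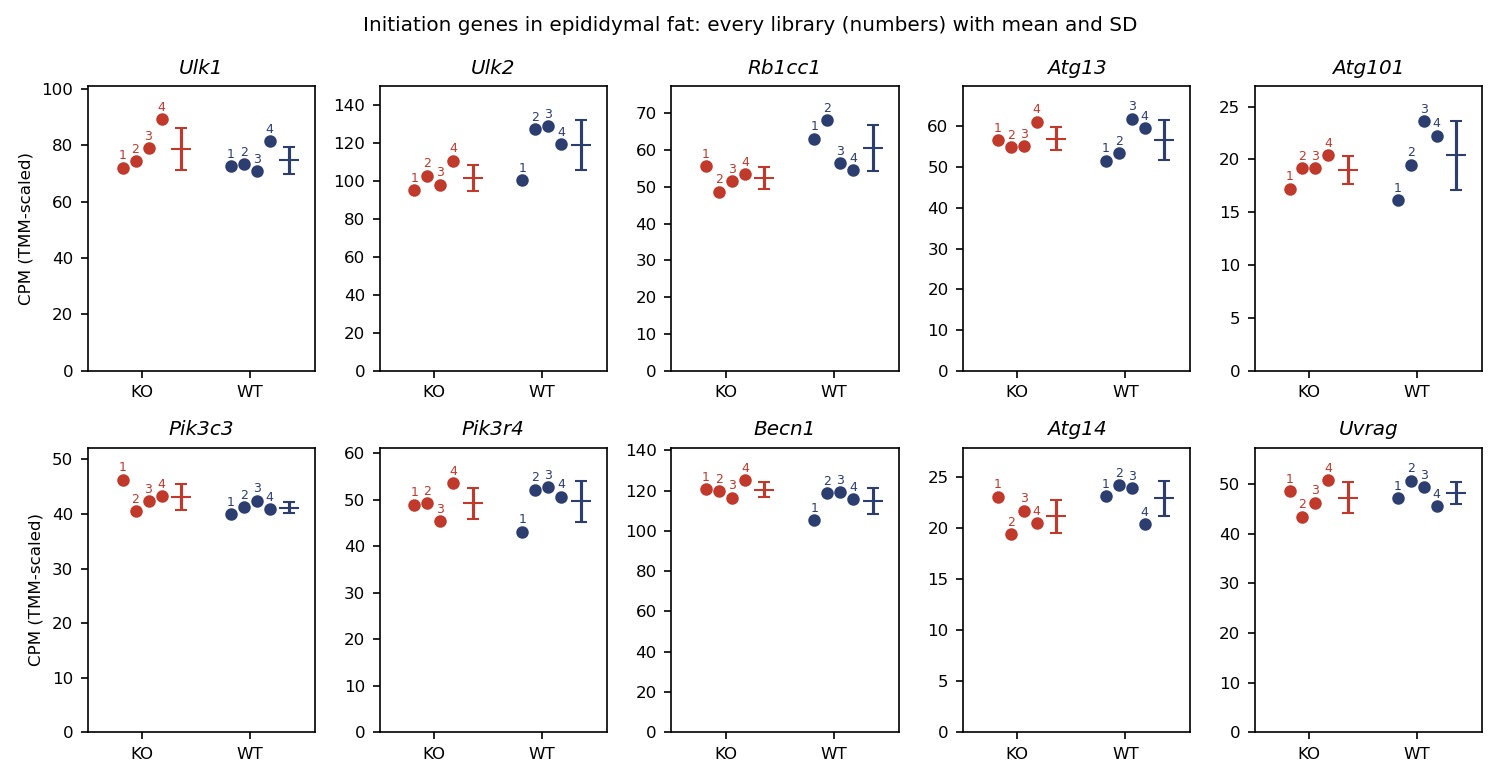
CPM (vertical axis, from 0) of each initiation gene in the 4 KO libraries (red) and the 4 WT libraries (blue); numbers are library numbers, and the cross bar with whiskers is the mean with SD. The genotypes overlap in all 10 panels, and the means of Ulk2 stand at 102 CPM in KO and 119 CPM in WT fat.

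Ulk1 and Ulk2 encode the alternative serine/threonine kinases of the ULK complex. Ulk1 (chromosome 5, 110784488 to 110810097, minus strand, mm10) held 72.0, 74.2, 79.0 and 89.1 CPM in KO libraries 1 to 4, against 72.5, 73.4, 70.9 and 81.4 CPM in WT libraries 1 to 4. Library 4 was the highest of each genotype, and 3 of the 4 KO values lay inside the WT range. The log2FC of Ulk1 was 0.077 (SE 0.086, edgeR adjusted p = 0.708). It was 0.011 without KO library 4 and 0.12 without WT library 4.

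Ulk2 (chromosome 11, 61775649 to 61855073, minus strand) held 95.2, 103, 98.2 and 111 CPM in KO libraries 1 to 4, against 101, 128, 129 and 119 CPM in WT libraries 1 to 4. WT library 1 fell within the KO range, and the other WT libraries lay above every KO library. With a mean of 102 ± 6.84 CPM in KO and 119 ± 13.1 CPM in WT fat, Ulk2 had the largest difference of the 10 genes, 1.17-fold lower in KO. Its log2FC was -0.23 (SE 0.095, unadjusted p = 0.0402, edgeR adjusted p = 0.283). Leaving out WT library 1 gave the lowest adjusted p for Ulk2, 0.170, with a log2FC of -0.30, so the difference did not pass in any setting run. Without KO libraries 2 and 3 the log2FC was -0.20.

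The sequence before the start sites of these alternative kinases is shown because their relative level is the comparison in which the genotypes separated. That separation was by a small margin and did not pass adjustment over the 4 ratios compared (exact permutation test, adjusted p = 0.114). The 120 bases before the RefSeq start (build GRCm38.p6, minus strand, 5′ to 3′) lie at chr5:110810082-110810201 for Ulk1 and at chr11:61855093-61855212 for Ulk2. Capitals mark a match to the core of the antioxidant response element, spelled TGACNNNGC.
Ulk1: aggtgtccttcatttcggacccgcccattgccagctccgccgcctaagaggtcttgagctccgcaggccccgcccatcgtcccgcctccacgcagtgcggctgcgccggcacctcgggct
Ulk2: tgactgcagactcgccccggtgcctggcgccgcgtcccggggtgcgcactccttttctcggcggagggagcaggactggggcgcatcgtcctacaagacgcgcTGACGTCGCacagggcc
In the 250 bases before the start, G and C made up 67.2% for Ulk1 and 72.8% for Ulk2, against a median of 52.4% over 32851 RefSeq promoters. Promoters of 7 of the 10 genes were searched on both strands, those of Ulk1, Ulk2, Atg13, Atg101, Pik3r4, Atg14 and Uvrag. Becn1 and Rb1cc1 had no entry under their symbols. Pik3c3 was left out by choice and not for want of a match, so nothing is said here of its promoter. The set of all promoters was not restricted by that choice. TGACNNNGC was found before Ulk2 and Atg13, 2 of 7, against 10.2% of all promoters. CACGTG, the E-box core of the CLEAR element read by TFEB and TFE3, was found in 0 of 7 (6.02% of all), as were the palindromic CLEAR element, which contains it (0.24%), and the forkhead motif GTAAACA of FOXO factors (3.17%). These matches describe letters in a window and were not tied to any expression value.

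The ratio of Ulk1 to Ulk2 within a library needs no scaling between libraries. Counts divided by exonic length gave ratios of 0.868, 0.827, 0.922 and 0.922 in KO libraries 1 to 4, against 0.826, 0.659, 0.630 and 0.782 in WT libraries 1 to 4. Every KO library was above every WT library, though KO library 2 and WT library 1 were almost equal. The mean log2 ratio was -0.18 ± 0.076 in KO and -0.47 ± 0.19 in WT fat (SD, n = 4 each), a difference of 0.30 or 1.23-fold. A two-sided exact permutation test over the 70 assignments gave p = 0.0286, the smallest it can give, and 0.114 after Benjamini-Hochberg adjustment over the 4 ratios compared, so the difference did not pass the adjustment. Leaving out any KO library took the unadjusted exact p above the threshold, to 0.0571 or 0.114, while the difference stayed between 0.28 and 0.33. It was 0.31 without KO libraries 2 and 3.

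**Figure D2:**
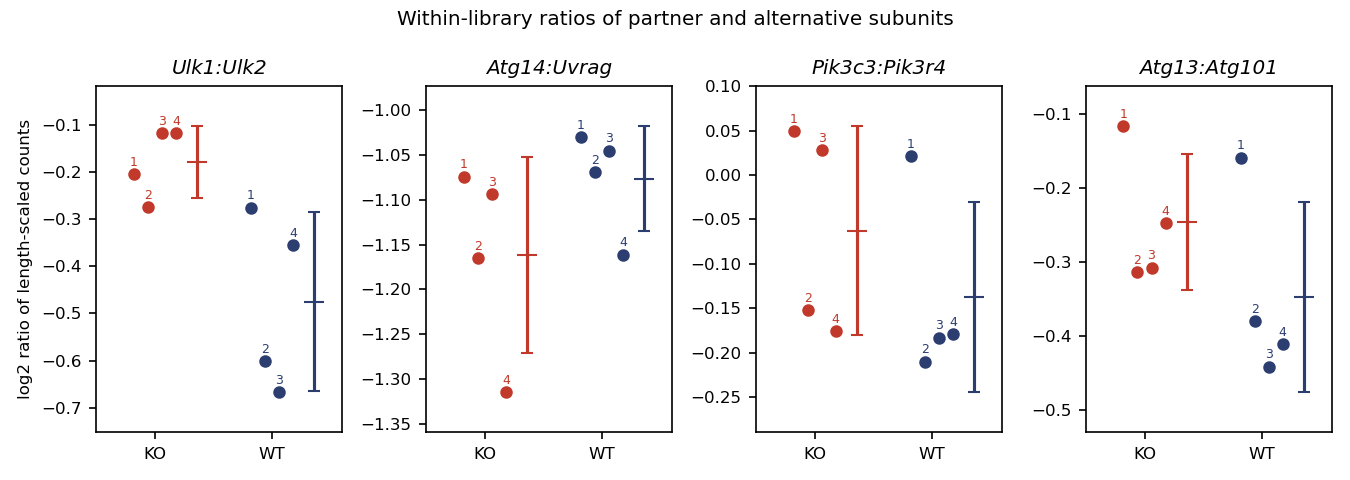
Log2 ratio of length-scaled counts (vertical axis, a separate scale in each panel, not from 0) within each KO library (red) and WT library (blue), with library numbers, mean and SD. The genotypes separate for Ulk1:Ulk2, by a small margin between KO library 2 and WT library 1, and overlap for the other 3 ratios.

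Rb1cc1 encodes FIP200, the large scaffold that holds the ULK complex together. The gene lies on chromosome 1 (6206197 to 6276648, plus strand) and held 55.6, 48.6, 51.5 and 53.4 CPM in KO libraries 1 to 4, against 63.0, 68.1, 56.4 and 54.5 CPM in WT libraries 1 to 4. Only KO library 1 reached into the WT range. The mean was 52.3 ± 2.96 CPM in KO and 60.5 ± 6.25 CPM in WT fat, with a log2FC of -0.21 (SE 0.088, unadjusted p = 0.0397, edgeR adjusted p = 0.282). Without KO libraries 2 and 3, whose duct marker sums were 523 and 543 CPM, the log2FC was -0.14 (edgeR adjusted p = 0.771). The antisense gene 4732440D04Rik overlaps Rb1cc1 exons, but it held 76 reads over all 8 libraries.

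Atg13 and Atg101 encode HORMA-domain proteins that pair with each other and link the kinases to FIP200. Atg13 (chromosome 2, 91674618 to 91710576, minus strand) held 56.6, 54.9, 55.2 and 61.1 CPM in KO libraries, all within the WT values of 51.5, 53.3, 61.8 and 59.5 CPM. Its log2FC was 0.010 (SE 0.080, edgeR adjusted p = 0.965), with a sign that turned without KO library 4, WT library 1 or WT library 2. Atg101 (chromosome 15, 101284301 to 101290934, plus strand) held 17.2, 19.2, 19.2 and 20.4 CPM in KO libraries, inside the wider WT spread of 16.2, 19.5, 23.6 and 22.3 CPM. It had the widest interval of the 10, from 0.761-fold to 1.14-fold, and the fewest reads. Its log2FC of -0.10 (edgeR adjusted p = 0.749) was -0.021 without WT library 3 and -0.19 without WT library 1. The ratio of Atg13 to Atg101 was 0.923, 0.805, 0.808 and 0.842 in KO libraries and 0.896, 0.769, 0.736 and 0.752 in WT libraries, a log2 difference of 0.10 (two-sided exact permutation p = 0.257, also 0.257 adjusted over the 4 ratios). Without WT library 1 that difference was 0.16 (unadjusted exact permutation p = 0.0286, the smallest that test can give). Of the 11 alternatives for this ratio, it was the only 1 under the threshold.

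Pik3c3 encodes VPS34, the lipid kinase itself, and Pik3r4 encodes VPS15, the pseudokinase that anchors it. Pik3c3 (chromosome 18, 30272747 to 30348126, plus strand) held 46.2, 40.5, 42.3 and 43.3 CPM in KO libraries, against 40.0, 41.2, 42.4 and 40.9 CPM in WT libraries. The WT values were the tightest of any initiation gene, with a coefficient of variation of 2.43%, and KO libraries 1 and 4 lay above them. Its log2FC was 0.068 (SE 0.067, edgeR adjusted p = 0.665), with 0.030 without KO library 1 and 0.13 without KO libraries 2 and 3.

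Pik3r4 (chromosome 9, 105642995 to 105687655, plus strand) held 48.9, 49.3, 45.4 and 53.5 CPM in KO libraries, against 43.1, 52.1, 52.7 and 50.6 CPM in WT libraries. WT library 1 was the lowest of all 8, and the log2FC was -0.011 (SE 0.087, edgeR adjusted p = 0.965), with a sign that turned under upper quartile scaling and with library size alone. The ratio of Pik3c3 to Pik3r4 was 1.04, 0.900, 1.02 and 0.885 in KO libraries and 1.02, 0.864, 0.881 and 0.883 in WT libraries. These ratios rest on the exonic lengths in the table. Their log2 difference between genotypes was 0.075 (two-sided exact permutation p = 0.171, 0.229 adjusted over the 4 ratios).

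Becn1 encodes Beclin 1, the subunit through which BCL2-family proteins restrain the complex. The gene lies on chromosome 11 (101285952 to 101302286, minus strand) and held 121, 120, 116 and 125 CPM in KO libraries, against 105, 119, 119 and 116 CPM in WT libraries. KO libraries 1, 2 and 4 lay above every WT library, and KO library 3 lay within the WT range. The mean was 120.5 ± 3.64 CPM in KO and 115 ± 6.46 CPM in WT fat, with a log2FC of 0.070 (SE 0.068, edgeR adjusted p = 0.657). It was 0.032 without WT library 1 and 0.11 without KO libraries 2 and 3. Exons of Cntd1 on the opposite strand overlap Becn1, and Cntd1 held 86 reads over all libraries.

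Atg14 and Uvrag encode alternative partners of Beclin 1. ATG14 directs the complex to forming autophagosomes, and UVRAG is found in the complex of the endosomal pathway and of autophagosome maturation. Atg14 (chromosome 14, 47540894 to 47568434, minus strand) held 23.1, 19.4, 21.7 and 20.5 CPM in KO libraries, against 23.1, 24.2, 24.0 and 20.4 CPM in WT libraries. Only KO library 2 lay below the WT range. Atg14 had a log2FC of -0.12 (SE 0.095, edgeR adjusted p = 0.598), and -0.071 without KO library 2.

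Uvrag (chromosome 7, 98886743 to 99141144, minus strand) held 48.5, 43.4, 46.2 and 50.8 CPM in KO libraries, against 47.1, 50.7, 49.3 and 45.6 CPM in WT libraries. The log2FC was -0.028 (SE 0.073, edgeR adjusted p = 0.887), and its sign turned without KO library 2. Per length there were more Uvrag than Atg14 transcripts in every library, with Atg14 to Uvrag ratios of 0.475, 0.446, 0.469 and 0.402 in KO and 0.490, 0.477, 0.485 and 0.447 in WT fat. These ratios overlapped, with a log2 difference of -0.085 (two-sided exact permutation p = 0.171, 0.229 adjusted over the 4 ratios). Annotated antisense genes overlap exons of Atg14 and Uvrag, and their reads were not counted separately.

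The 95% intervals of the 10 fold changes give, for each gene alone, the sizes that the main fit leaves room for. The lowest bound was 0.736-fold, for Ulk2, and the highest was 1.21-fold, for Ulk1. Other settings moved these estimates. The log2FC was 0.18 (SE 0.11) for Pik3c3 with the duct marker covariate and -0.30 (SE 0.078) for Ulk2 without WT library 1. The interval of Atg3 ran from 0.528-fold to 0.691-fold. What set the width of these intervals was not tested. Counting error alone gives a coefficient of variation of 2.39% for Becn1 to 5.85% for Atg101 at their mean counts. Observed coefficients had a median of 6.69% in KO and 8.13% in WT libraries over the 10 genes, against 9.08% and 10.6% over the 6577 tested genes in the same range of mean CPM. The median absolute log2FC was 0.073 for the 10 genes, against 0.12 for those 6577 genes.

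**Figure D3:**
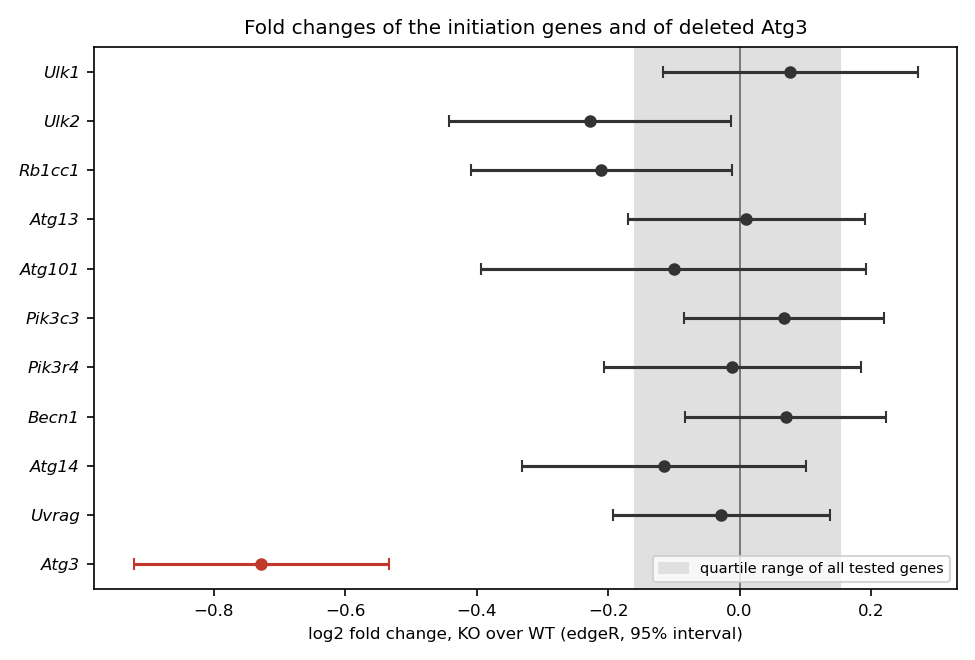
Log2 fold change of KO over WT (horizontal axis) with its 95% interval for each initiation gene and, in red, for Atg3; the grey band runs from the lower to the upper quartile of all 14800 tested genes. All initiation genes lie between -0.23 and 0.077, and Atg3 lies at -0.73.

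Levels between genes were compared per exonic length, as FPKM scaled by TMM. In KO fat the order from high to low was Becn1 (17.1 ± 0.515 FPKM), Ulk2 (17.03 ± 1.14), Atg101 (15.5 ± 1.07), Ulk1 (15.1 ± 1.46), Uvrag (13.7 ± 0.916), Atg13 (13.0 ± 0.661), Pik3r4 (10.1 ± 0.682), Pik3c3 (9.65 ± 0.536), Atg14 (6.14 ± 0.460) and Rb1cc1 (3.56 ± 0.201 FPKM, SD, n = 4). In WT fat Ulk2 stood first at 19.9 ± 2.19 FPKM, followed by Atg101 at 16.6 ± 2.68 and Becn1 at 16.2 ± 0.914 FPKM, and the remaining order was that of KO fat. Among the 6 highest genes the ranges of neighbours overlapped in both genotypes, as did those of Pik3r4 and Pik3c3. Steps that were clear of overlap in both genotypes ran from Atg13 to Pik3r4, from Pik3c3 to Atg14 and from Atg14 to Rb1cc1. Rb1cc1 was the lowest and Atg14 the next lowest in each of the 8 libraries.

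These per-length levels depend on the exonic length in the table, which for Rb1cc1 is 14690 bases, against 7607 for its longest principal coding transcript in GENCODE M21, and for Becn1 7065 against 4365 bases. With principal transcript lengths, which were added once the values were known, Becn1 stood at 27.6 FPKM in KO and 26.3 FPKM in WT fat, above all others in both genotypes. Rb1cc1 then stood at 6.87 in KO and 7.95 FPKM in WT fat, above Atg14 at 5.68 and 6.15 FPKM. Uvrag stood at 9.16 FPKM in KO and 9.34 FPKM in WT fat because its principal transcript, 5157 bases, is longer than the 3438 bases in the table. Pik3c3 stood at 13.2 FPKM in KO and 12.6 FPKM in WT fat, above Pik3r4 at 10.4 FPKM in both, the other way round from the order by exonic length. Fold changes between genotypes do not depend on the length.

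**Figure D4:**
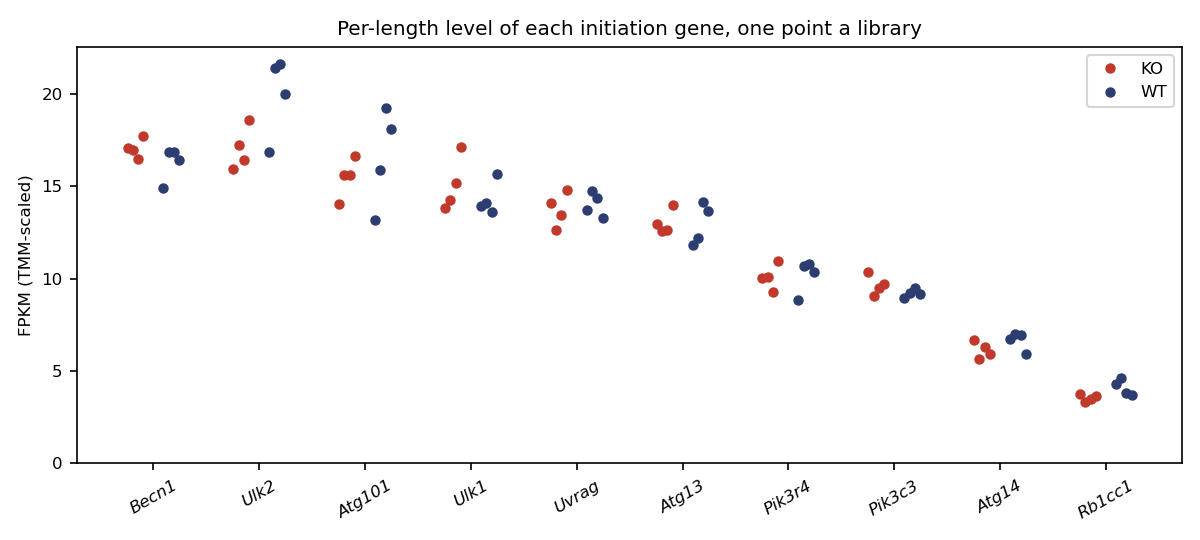
Level per exonic length (FPKM, TMM-scaled, vertical axis from 0) of each initiation gene, ordered by the KO mean, with a point for each KO library (red, left) and WT library (blue, right). Ulk2 in WT fat reaches 21.6 FPKM, and Rb1cc1 stays between 3.31 and 4.63 FPKM over both genotypes.

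Genes whose pattern over the 8 libraries was most like that of Ulk2, the initiation gene with the largest difference, were Isca2, Ppp2r4 and Calu. Their centred log2 CPM differed from that of Ulk2 by a mean of 0.038, 0.041 and 0.044 per library, against a median of 0.21 over 12502 genes compared. Ppp2r4 held 159, 175, 158 and 186 CPM in KO libraries, against 174, 209, 227 and 212 CPM in WT libraries. As with Ulk2, WT library 1 was the lowest of its genotype, and Ppp2r4 did not pass (log2FC -0.28, edgeR adjusted p = 0.219). Since these genes were picked for that pattern, the likeness is no separate result.

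Regulators and partners of the initiation complexes were set beside them in 5 lists of 41 genes, all of which were tested. With edgeR 0 of 41 passed, and 7 had an unadjusted p under 0.05 (16.2% of all tested genes did). Limma-voom called 0 of 41, against 0.304% of all tested genes. DESeq2 called 3 of 41, Prkag2, Foxo1 and Ulk4, against 810 of 14800 tested genes, or 5.47%, a share near that of the lists. In 3 of the 41 all KO libraries lay below all WT libraries, against 4.54% of tested genes, and in 0 of 41 above, against 4.32%. Antisense or other opposite-strand genes overlap exons of Bcl2, Deptor, Prkag2 and Foxo1, with 0 to 90 reads each over all libraries.

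Of 14 VPS34 partners and regulators, 12 had negative and 2 positive log2FC, against 7758 negative and 7042 positive of the 14800 tested genes. Their median was -0.14, against -0.013 over all tested genes. Only 1 of the 14 (7.14%) had an unadjusted edgeR p under 0.05, against 16.2% of all tested genes. Bcl2, which binds Beclin 1 and restrains it, held 29.6, 27.0, 28.9 and 28.4 CPM in KO libraries, against 47.7, 35.9, 32.2 and 35.7 CPM in WT libraries. Every KO library was below every WT library, with a log2FC of -0.41 (SE 0.12, edgeR adjusted p = 0.159). Without WT library 1, where Bcl2 was highest, the log2FC was -0.28 (edgeR adjusted p = 0.175). Nrbf2, a subunit of the ATG14-containing complex, held 7.23, 9.78, 6.88 and 7.11 CPM in KO libraries, against 8.94, 10.3, 9.27 and 10.9 CPM in WT libraries (log2FC -0.35, edgeR adjusted p = 0.323). KO library 2 alone reached the WT range.

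Of 7 genes of AMPK and its upstream kinase, 6 had log2FC values from -0.026 to 0.040. The exception was Prkag2, a regulatory gamma subunit, with 60.3, 57.9, 60.3 and 61.2 CPM in KO libraries, against 78.9, 73.4, 84.8 and 72.2 CPM in WT libraries. All KO libraries were below all WT libraries, with means of 59.9 ± 1.44 CPM in KO and 77.3 ± 5.80 CPM in WT fat. The log2FC was -0.37 (SE 0.071), edgeR's adjusted p was 0.0716 and DESeq2's was 9.97e-04, and without KO libraries 2 and 3 the log2FC was -0.34 (edgeR adjusted p = 0.426). Prkaa1, a catalytic alpha subunit, had 97.4 ± 12.1 CPM in KO and 94.7 ± 7.42 CPM in WT fat (log2FC 0.040, edgeR adjusted p = 0.882).

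Of 13 genes of mTORC1 and its brakes, 5 had positive and 8 negative log2FC, with a median of -0.031. Deptor, an inhibitory mTOR-binding protein, held 80.0, 84.3, 70.5 and 113 CPM in KO libraries, against 90.6, 149, 140 and 116 CPM in WT libraries (log2FC -0.51, SE 0.18, edgeR adjusted p = 0.225). The log2FC of Deptor was -0.35 without KO libraries 2 and 3 (edgeR adjusted p = 0.713) and -0.24 with the duct marker covariate (0.810). Sesn2, a stress-induced inhibitor of mTORC1 signalling, held 66.9, 86.1, 71.9 and 73.5 CPM in KO libraries, against 32.7, 53.0, 68.6 and 54.0 CPM in WT libraries (log2FC 0.52, SE 0.19, edgeR adjusted p = 0.235). In both genes a single pair of libraries made the overlap. For Deptor, KO library 4 stood above WT library 1, and for Sesn2, WT library 3 stood above KO library 1.

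Of 5 transcription factors known to act on autophagy genes, Foxo1 differed most. It held 104, 122, 107 and 108 CPM in KO libraries, against 127, 141, 186 and 185 CPM in WT libraries, without overlap. Its log2FC was -0.53 (SE 0.13, edgeR adjusted p = 0.131, DESeq2 adjusted p = 0.0130) and -0.58 without KO libraries 2 and 3. Tfeb and Tfe3, which drive lysosomal and autophagy genes, had log2FC values of 0.013 and 0.024. Mitf, a relative of both, had 28.3 ± 1.36 CPM in KO and 26.5 ± 4.85 CPM in WT fat (log2FC 0.10, edgeR adjusted p = 0.751). Its log2FC was 0.0082 without WT library 4 and 0.19 without WT library 1.

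Among the ULK relatives that are not part of the complex, Ulk3 held 19.8 to 23.5 CPM in KO and 19.6 to 23.5 CPM in WT libraries. Ulk4, a ULK-related pseudokinase known for its role in motile cilia, held 1.46, 13.3, 15.1 and 2.40 CPM in KO libraries, against 1.38, 1.29, 2.38 and 1.24 CPM in WT libraries. Its level was high in KO libraries 2 and 3, where Foxj1, the regulator of motile cilia on the duct list, held 100.3 and 114 CPM, against 1.15 and 4.95 CPM in KO libraries 1 and 4. Exons of Ulk4 are overlapped on the opposite strand by Ctnnb1, which held 61760 reads over the 8 libraries, and no source says whether reads were assigned by strand, so the Ulk4 level is uncertain. The log2FC of Ulk4 was 2.35 (SE 0.73, edgeR adjusted p = 0.171, DESeq2 adjusted p = 0.0172). It was 0.33 without KO libraries 2 and 3 and -0.73 with the duct marker covariate.

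**Figure D5:**
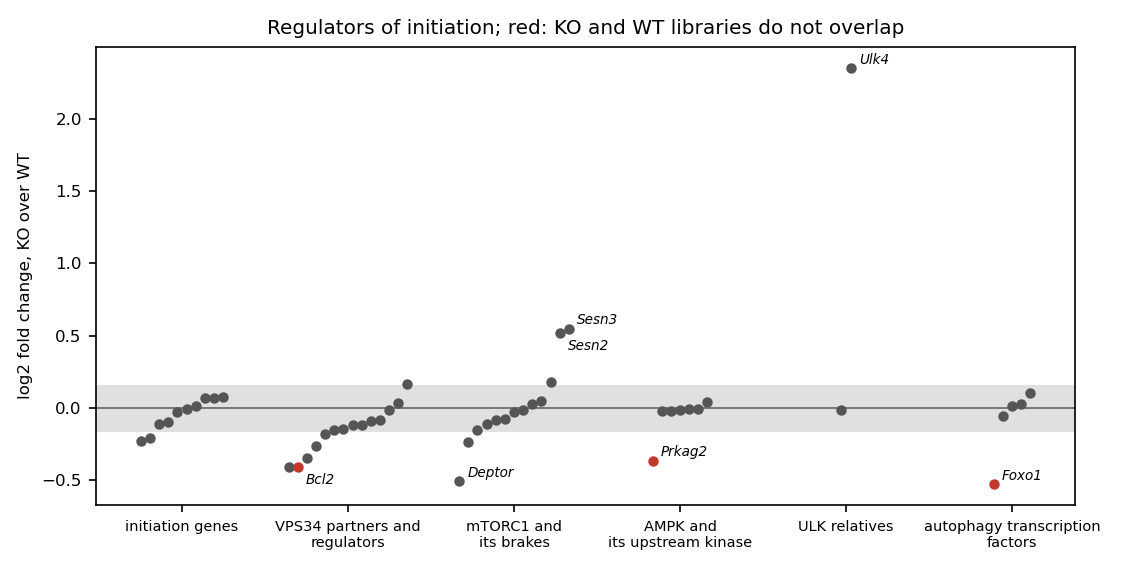
Log2 fold change of KO over WT (vertical axis) of the initiation genes and of 5 lists of regulators and relatives, with a point for each gene; the grey band runs from the lower to the upper quartile of all tested genes. Red points mark the 3 genes whose KO and WT libraries do not overlap, Bcl2, Prkag2 and Foxo1, and Ulk4 stands at 2.35.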

How the data were processed

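Stranded polyadenylated RNA libraries of epididymal fat were sequenced as single reads, per the labels' protocols. Novoalign 2.8.1, Picard and build mm10 are named in the submitters' processing notes, without roles. The counting program, the annotation and any use of strand were not given in the sources used here. Per the file headers, the authors deposited raw counts and FPKM values for 37417 genes in 8 libraries. All 158499 deposited FPKM values above 0 equal count over length and library total within 0.1%, and levels here were recomputed from the counts. Groups and replicate numbers come from sample titles.

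Genes were filtered with filterByExpr (minimum count 10, 14800 kept), scaled by TMM and tested with edgeR 4.0.16 in R 4.3.3 (quasi-likelihood, no covariate, Benjamini-Hochberg over all tested genes, threshold 0.05). P-values measure the spread between 4 mice per genotype. Ratios used counts plus 0.5 and exact permutation tests. Alternatives were other scalings, filters, DESeq2 1.42.0, limma-voom (limma 3.58.1), robust fitting, a replicate block, a duct marker covariate and left-out libraries. Genes named outside the 10 are Atg3, the 2 with the lowest p in each list, the 3 nearest in pattern to Ulk2, and Tfeb and Tfe3, which were added after their values were seen. Genes, lists and ratios were chosen with earlier results of these data known. All same-genotype libraries differed by more than sampling noise (lowest chi-square per gene 20.8). File starts count from 0 and are printed from 1. RefSeq promoters were matched by symbol, and Pik3c3 was left out of the promoter search by choice.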

Additional observations from a re-analysis of the deposited data

Results flagged for a closer look

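Of 50 groups of 4 libraries examined (25 genes or ratios in each genotype), 3 held a library whose gap to the nearest other exceeded Dixon's 95% critical value, as a share of the group's range. Chance flags about 1 in 20 groups. Nrbf2 was at 9.78 CPM in KO library 2, against 6.88 to 7.23 CPM in the other KO libraries. Ulk4 was at 2.38 CPM in WT library 3, against 1.24 to 1.38 CPM in the other WT libraries. The log2 ratio of Pik3c3 to Pik3r4 was 0.022 in WT library 1, against -0.21 to -0.18 in the other WT libraries.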

How the results depend on the processing

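No initiation gene was called in any of the 19 alternatives (0 of 10 each), including DESeq2, limma-voom, the replicate block and each left-out library. Of the 10, 0 to 2 had an unadjusted p under 0.05. So did 1294 of 15191 tested genes (without KO libraries 2 and 3) to 3257 of 23926 (no filter on low counts). The lowest adjusted p of an initiation gene over these settings was 0.170, for Ulk2. Over all genes the 60 calls became 810 with DESeq2, 14 with the replicate block, 2 with the duct marker covariate, 3 without KO libraries 2 and 3, and 0 to 290 with a library left out, 0 without KO library 2 (where edgeR gave 1573 genes an unadjusted p under 0.05) and 290 without KO library 1. The count was 7, 4, 20 and 8 without WT libraries 1 to 4, and 23 without KO library 3. Of the 41 regulators 3 were called by DESeq2. Atg3 kept its direction, with its call lost at a log2FC of -0.73 (replicate block, adjusted p = 0.111), -0.77 (duct covariate) and -0.77 (without KO libraries 2 and 3), and left-out libraries gave -0.78 to -0.69. Deviations of same-numbered libraries correlated at 0.18, -0.11, -0.25 and 0.058, and 2 of 8 libraries correlated best with their own number. With 4 libraries per genotype, these values cannot tell whether the replicate numbers pair the mice.

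Signs turned for Pik3r4 (0.0037 with upper quartile scaling, 0.0074 with library size only, 0.098 with the duct covariate, 0.056 without KO libraries 2 and 3, -0.071 to 0.033 with a library left out), Uvrag (0.094 with the duct covariate, 0.056 without KO libraries 2 and 3, -0.064 to 0.016), Ulk4 (-0.73 with the duct covariate), Atg13 (-0.030 to 0.058), Prkaa1 (-0.040 to 0.11) and Ulk3 (-0.066 to 0.027). The Ulk1 to Ulk2 difference ranged from 0.23 to 0.36 and that of Atg13 to Atg101 from 0.058 to 0.16 with a library left out. The cause of these shifts was not tested. Of the 10 initiation genes, Atg101 and Atg14 had the fewest reads, 188 to 426 per library, and of the other genes named, Nrbf2 had 94 to 175 and Ulk4 16 to 221.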
